A study of Homo sapiens with 9 samples.

Results

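RNA of H1650 cells in which exon 11a of the ENAH transcript had been silenced was compared with RNA of H1650 cells given a control siRNA. H1650 is an established human line of non-small cell lung cancer. The comparison uses 6 of the 9 libraries of the series, chosen by their labels. Of these, 3 are control libraries, from cells given a nontargeting siRNA pool, and 3 are siMENA11a libraries, from cells given a mix of 3 siRNAs that each match 21 bases inside exon 11a. The other 3 libraries, siMENA, received a pool against ENAH that is not restricted to exon 11a, and are used here to test whether a change differed between the siRNAs. They also entered the fit of siMENA11a against control, where they added to the estimate of the spread and to the filter on low values. All 9 libraries come from the same line, transfected with the same lipid reagent at 20 nM and collected on day 3, and the labels name no other treatment or genetic change. The series' design text calls the libraries of a group biological replicates, all of 1 cell line, so p-values measure the spread between cultures of that line (n = 3 in every group below). Libraries are numbered by the replicate number in their labels.

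Values are FPKM, sequenced fragments scaled to transcript length and to the size of the library. Of the 16630 genes in the table, 13273 had a value in every library and averaged at least 0.5 FPKM over the 9, and all of these were tested. A gene is said to have risen or fallen where the adjusted p of the limma model (a linear model fitted to all genes, with Benjamini-Hochberg adjustment over the 13273) was under 0.05. Changes are differences of log2(FPKM + 1), siMENA11a minus control, which understate the change of genes with low FPKM. The fit was repeated without each of the 6 libraries in turn, and calls of the genes named below held in all 6 leave-one-out fits unless the text says otherwise.

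ENAH encodes hMENA, a member of the Ena/VASP family of actin regulators. These proteins sit at the growing ends of actin filaments, recruit profilin-bound actin and delay capping, and so shape protrusions and cell adhesions. Epithelial cells insert exon 11a through the ESRP splicing factors and make hMENA11a, an isoform known from epithelial tumour cells that keep their junctions. An siRNA guide strand is antisense to its target. It directs cleavage of transcripts that match it along its length, and through a short seed near its 5′ end it can also lower transcripts that match the seed in the 3′ UTR.

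Exon 11a is shown first because it is what the siRNAs were made against. In GRCh38 it lies on chromosome 1 from 225504991 to 225505053, on the minus strand, and is 63 bases long. GENCODE has it in 2 of the 9 annotated ENAH transcripts and as coding sequence in 1 of them. The capitals mark positions 11 to 18 of the exon, the stretch to which the results on 3′ UTRs below return.
ENAH exon 11a: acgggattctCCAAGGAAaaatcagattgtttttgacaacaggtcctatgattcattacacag

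ENAH held 26.1, 30.04 and 26.1 FPKM in control and 9.98, 11 and 10.3 FPKM in siMENA11a. Every siMENA11a library lay below every control library, at 38.1% of the control mean (log2 change -1.31, SE 0.09, limma adjusted p = 6.29e-05). The exact two-sided permutation test over the 3 and 3 libraries gave p = 0.1, the smallest it can give. Under siMENA the values were 4.43, 5.79 and 5.57 FPKM, below every siMENA11a library (siMENA11a minus siMENA 0.87, limma adjusted p = 0.000112). The table gives 1 value per gene, so the share of ENAH RNA that carried exon 11a was not measured. None of the other 12 genes of the Ena/VASP list, which holds ENAH's relatives and binding partners, passed the test (the list has 13 tested members).

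The FPKM of a library summed to between 558754 and 592930. RPPH1 and RMRP, 2 noncoding RNAs, made up 10.7% to 14.6% of it and the 20 most abundant genes 19.7% to 23.9%. No counts are given, so the depth behind a value is unknown. Epithelial keratins were abundant: KRT8 held 1505 to 1589 FPKM in control and 1111 to 1323 in siMENA11a, and KRT7 451 to 497 and 460.3 to 551 FPKM. The surfactant genes SFTPB and SFTPC, markers of alveolar cells, were near 0. Markers of other cell types were mixed. Of 13 fibroblast markers 10 were in the table and 6 averaged 0.5 FPKM or more. They summed to 113 to 124 FPKM in control and 86.1 to 106 FPKM in siMENA11a, mostly FBLN1 (76 to 83.7 and 53.5 to 71 FPKM) and FBLN2 (28 to 30.8 and 20.6 to 23.6 FPKM). FAP held 4.79 to 7.14 and 8.18 to 10.6 FPKM, whereas the collagen gene COL1A2 was at or below 0.036 FPKM. Of 10 endothelial markers 8 were in the table, with a sum of 36.7 to 50.04 FPKM in control and 34.7 to 40.1 FPKM in siMENA11a, mostly EGFL7 (34.9 to 47.9 and 32.5 to 37.5 FPKM), and PECAM1 and VWF were below 0.08 FPKM. The leukocyte genes CD8A, CD4, CD79A and LYZ were below 0.51 FPKM, CSF1R held 0.968 to 1.18 and 0.769 to 1.76 FPKM, and CD14 is given with the interferon genes. The part of these markers in the results was not tested.

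Many genes differed by small amounts. Of the 13273 genes, 2583 (19.5%) passed the test, 1083 higher (8.16%) and 1500 lower (11.3%) in siMENA11a. The median size of a called change was 0.35 on the log2 scale. In all, 16 genes (0.121%) rose and 20 (0.151%) fell at least 2-fold, and 141 rose and 199 fell at least 1.5-fold. Folds here and below are of FPKM + 1, so genes with low FPKM can be missed. STX19, at 3.95 times the control mean in FPKM, is not among the 16. Of the called genes 2561 had groups that did not overlap, a pattern shown by 36.7% of all genes tested. Of the 2583 calls, 1241 held whichever library was left out, 499 of them higher and 742 lower. Leaving out control library 3 lowered the count most: without it 1493 genes passed, 593 higher and 900 lower. Without control library 2 there were 969 falls, and without siMENA11a library 1 there were 719 rises. The share of calls that were lower was 58.1%, but 53.3% (1224 higher, 1398 lower) with median-ratio scaling and 50.9% (1314 higher, 1360 lower) with quantile normalization, which moved the median change of all genes from -0.01 to 0.00 and 0.01. With only the 6 control and siMENA11a libraries in the fit, 2031 genes passed, 857 higher and 1174 lower.

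**Figure D1:**
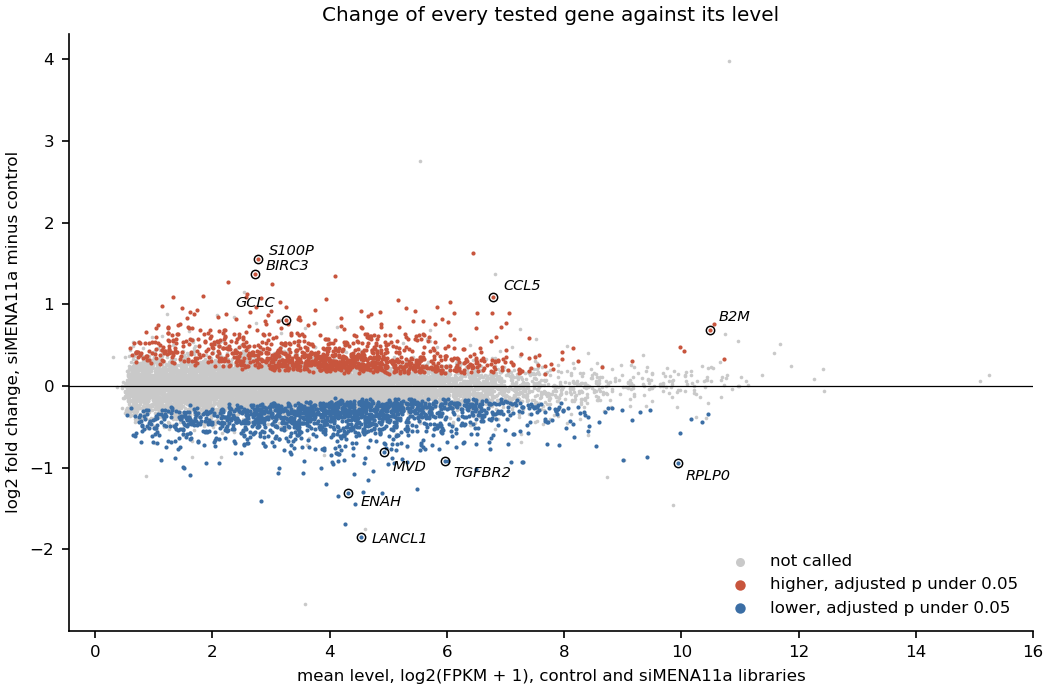
Each point is 1 of the 13273 genes tested, with its mean level in the 6 control and siMENA11a libraries on the x axis (log2 of FPKM + 1) and the log2 change of siMENA11a against control on the y axis; coloured points passed the limma test. The called genes spread over the whole range of levels, and 10 genes with large changes are labelled.

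The largest falls did not come from 1 pathway. ENAH, LIMK1 and MYL9 belong to different lists of actin genes, and CTSB and PLA2G15 encode lysosomal enzymes. LANCL1, a glutathione-binding protein of the lanthionine synthetase family, held 36.9, 32.5 and 36.1 FPKM in control and 10.5, 6.25 and 11.2 FPKM in siMENA11a. All 3 silenced libraries lay far below the controls (log2 change -1.85, SE 0.17, limma adjusted p = 0.000132), the largest fall among the genes named. EFTUD2, the GTPase of the U5 small nuclear ribonucleoprotein, held 30.7, 34.5 and 32.9 FPKM in control and 13.5, 11.6 and 12.9 FPKM in siMENA11a. The groups did not overlap (log2 change -1.30, SE 0.06, limma adjusted p = 1.95e-05), whereas PRPF8 and SNRNP200, its closest partners in the same particle, gave -0.11 and -0.03 (limma adjusted p = 0.611 and 0.793). CTSB, the lysosomal cysteine protease cathepsin B, held 59.9, 67.3 and 59.96 FPKM in control and 28.8, 23.7 and 24.1 FPKM in siMENA11a. It lay lower in all 3 silenced libraries (log2 change -1.26, SE 0.09, limma adjusted p = 6.48e-05). LIMK1, the kinase that inactivates cofilin, held 18.8, 21.2 and 20.9 FPKM in control and 8.77, 8.39 and 7.67 FPKM in siMENA11a. Again the groups were apart (log2 change -1.20, SE 0.07, limma adjusted p = 2.56e-05).

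ITFG3 (-1.45), GATSL3 (-1.41), PPP1R14C (-1.35), C12orf75 (-1.32) and SUMF1 (-1.15) completed the larger falls, given as log2 changes, that held in every leave-one-out fit. GATSL3, now named CASTOR1, is an arginine sensor of the mTORC1 pathway, PPP1R14C an inhibitor of protein phosphatase 1, and SUMF1 the enzyme that activates sulfatases. ITFG3 also fell under siMENA (log2 change -1.09). MYL9, a regulatory light chain of myosin II, held 15, 41.9 and 27.1 FPKM in control and 6.47, 15.2 and 3.68 FPKM in siMENA11a. Its groups overlapped (log2 change -1.70, SE 0.45, limma adjusted p = 0.0259), and the adjusted p rose to as much as 0.085 when control library 2 or 3 or siMENA11a library 1 or 3 was left out.

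HDAC3, the histone deacetylase of the NCoR and SMRT complexes, held 29.4, 25.4 and 28.6 FPKM in control and 14.5, 10.4 and 13.3 FPKM in siMENA11a. It was lower in each silenced library (log2 change -1.08, SE 0.10, limma adjusted p = 0.000185). C19orf63, now EMC10, a subunit of the ER membrane protein complex, held 115, 124 and 122 FPKM in control and 58.8, 57.5 and 61 FPKM in siMENA11a. This fall had one of the smallest p-values (log2 change -1.01, SE 0.06, limma adjusted p = 1.95e-05). The log2 change was -1.09 for CBLN1, -1.06 for the lysosomal phospholipase PLA2G15, -1.06 for the Toll-like receptor chaperone CNPY3, -1.04 for the O-glycosylation chaperone C1GALT1C1, -1.01 for FNDC5, -1.004 for RMI2 and -0.9953 for the integrin subunit ITGA9. S100A2, a calcium-binding protein of basal epithelium, held 12.3, 28.1 and 15.3 FPKM in control and 6.57, 10.9 and 7.69 FPKM in siMENA11a (log2 change -1.002, SE 0.31, limma adjusted p = 0.0485). That call was lost without control library 2 or 3 or siMENA11a library 1 or 3, and also with quantile normalization, no filter on low values, no mean-variance trend or only the control and siMENA11a libraries (highest limma adjusted p 0.143). S100A2 gave the other sign under siMENA (log2 change 1.13).

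**Figure D2:**
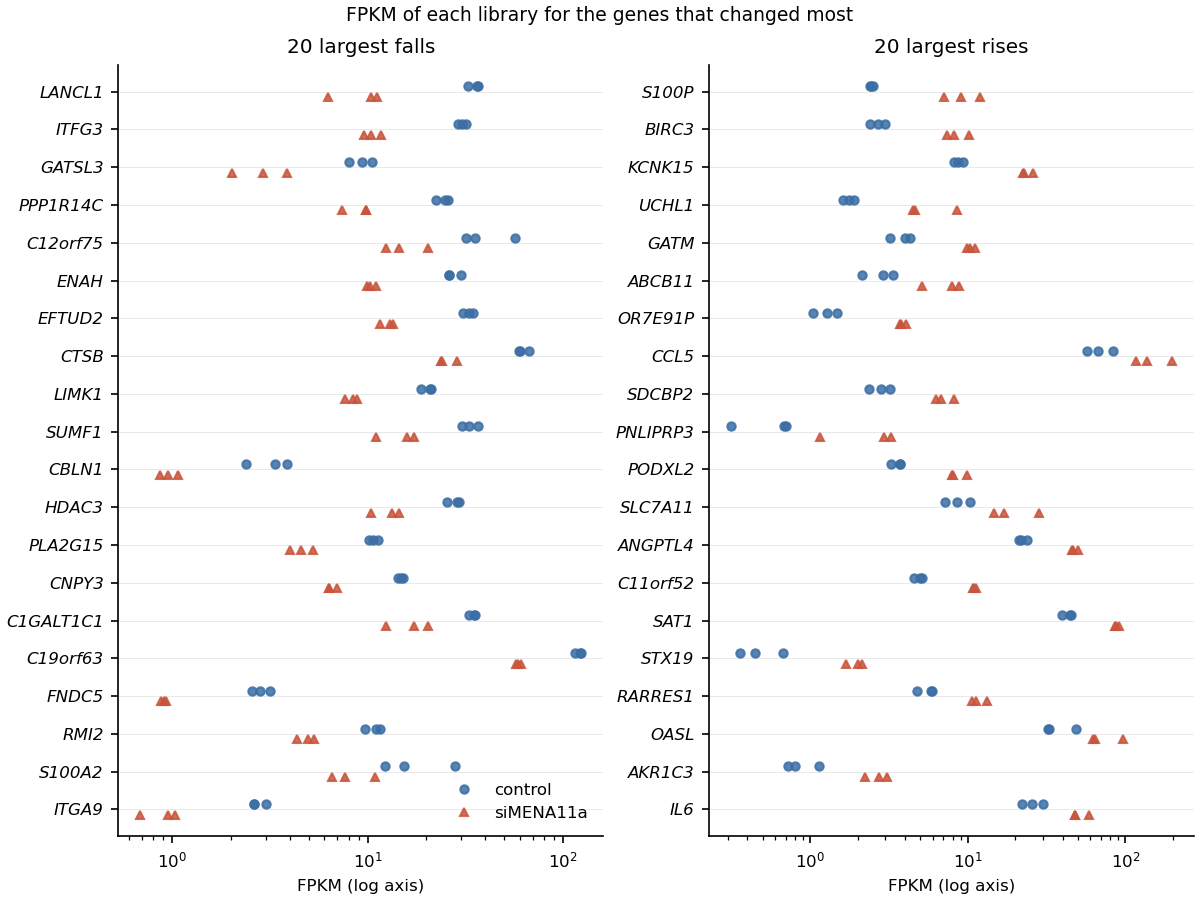
FPKM (x axis, log scale) of every control library (circles) and siMENA11a library (triangles) for the 20 largest falls and 20 largest rises named by the rule, ranked from the top by log2 change. The groups do not overlap for any of the 40 genes, which the rule required, and the distance between groups is largest for LANCL1 among the falls.

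The 3′ UTRs of most of these genes held short matches to exon 11a. The lines below give 25 bases of the 3′ UTR of 8 of the 17 such genes that fell at least 2-fold, in GRCh38, 5′ to 3′ on the gene's strand. Each line surrounds the longest run shared with the exon that includes either word. Matches elsewhere in the exon were not considered for these lines. All therefore carry the capitals of the exon printed above in part or in full, because the search required it. Here capitals mark the run that is identical to the exon.
LANCL1, chr2:210434391-210434415, minus strand: gttgcttTCCAAGGAAAcaaagagt
MYL9, chr20:36549463-36549487, plus strand: ctgacccCTCCAAGGAAAgaccacc
GATSL3, chr22:30285173-30285197, minus strand: ctggggcCTCCAAGGAAAgtatttt
C12orf75, chr12:105370687-105370711, plus strand: agacattTCCAAGGAAAttctaaac
EFTUD2, chr17:44851039-44851063, minus strand: tccattcCCAAGGAAAAgagaggag
LIMK1, chr7:74122461-74122485, plus strand: ccgtgacgTCCAAGGAAccaaaccc
HDAC3, chr5:141621429-141621453, minus strand: gctgtgtcCCAAGGAAtttcttttc
PPP1R14C, chr6:150250168-150250192, plus strand: tggccttgTCCAAGGAtgggggtca
The identical run was 11 bases in MYL9 and GATSL3, 10 in LANCL1, C12orf75 and EFTUD2, 9 in LIMK1 and 8 in HDAC3 and PPP1R14C. Among the genes not shown it ranged from 7 bases in CBLN1 and RMI2 to 10 in SUMF1. Most of the 17 genes hold more than 1 site, and the run given is the longest of them. Run lengths were not computed for carriers that fell less, did not change or rose, so these lengths have no background to be read against. A match is a description of the letters. Which words the 3 siRNAs hold at their seeds is not given in the labels, and the part of such matches in the falls was not tested.

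To see how the rest of the exon compares, all 57 words of 7 bases in exon 11a and their 57 reverse complements were searched in the longest annotated 3′ UTR of 12182 tested genes. Of these genes 11.9% fell, and their median UTR was 1348 bases long. The word CCAAGGA, at position 11, was present in 1794 of them (14.7%), of which 20.1% fell and 6.36% rose. CAAGGAA, which overlaps it at position 12, was present in 2019 (16.6%), of which 18.6% fell. The neighbouring word TCCAAGG, at position 10, gave 14.9%. Median changes were -0.06, -0.04 and -0.03 for the carriers of these 3 words. Of the 57 words read in the sense of the exon these 3 had the highest shares. Among the reverse complements GTTGTCA, of position 34, had the highest, 15.6%. The pair CCAAGGA and CAAGGAA was known from earlier results of these data.

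Together, 2944 genes (24.2%) carried CCAAGGA or CAAGGAA or both, and 17 of the 20 genes that fell at least 2-fold were among them. The remaining 3 were ENAH, C1GALT1C1 and S100A2. Of the carriers 17.8% fell and 8.08% rose, against 9.98% and 8.67% of the 9238 other genes. The carriers' 3′ UTRs were longer, with a median of 2836 against 1034 bases, so the shares are given by length. In UTRs of 10 to 784 bases 27.8% of carriers and 11.9% of other genes fell. In those of 785 to 2136 bases the shares were 22.2% and 9.36%, and in those of 2138 bases or more 14.5% and 7.53%. The share was higher for carriers in each length class. Without control library 3 the shares over all lengths were 12.3% and 5.57%. Of the falls in the siMENA11a group, 922 were of genes without either word.

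**Figure D3:**
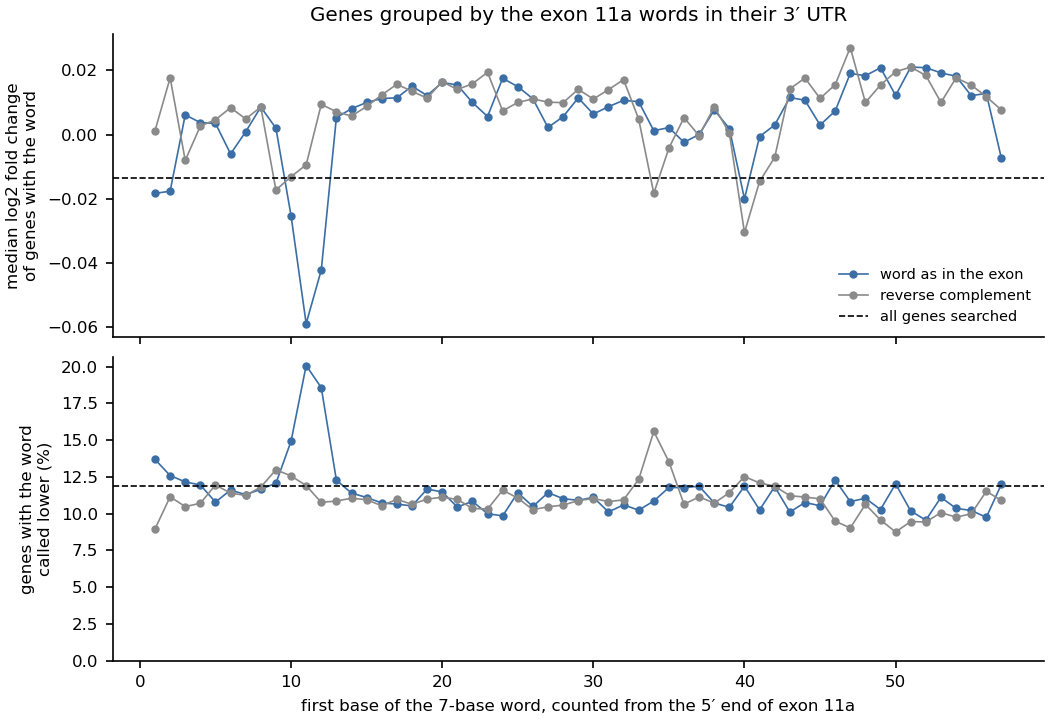
Genes grouped by the 7-base words of exon 11a that their 3′ UTR holds, by the word's first position in the exon (x axis, bases): median log2 change of the carriers (upper panel) and percent of carriers that fell (lower panel), for words as in the exon and for reverse complements. Dashed lines give all searched genes (11.9% fell), and the words at positions 11 and 12 stand at 20.1% and 18.6%.

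The rule named 10 falls among abundant genes, averaging 100 FPKM or more, of which C19orf63 is given above and CAPZA1 and SCD with their lists. RPLP0, the ribosomal stalk protein, held 1318, 1262 and 1269 FPKM in control and 695, 549.9 and 771 FPKM in siMENA11a. The control libraries lay close together, and all silenced libraries lay below them (log2 change -0.95, SE 0.12, limma adjusted p = 0.000728). SUMO2, the small ubiquitin-like modifier, held 204, 203 and 207 FPKM in control and 114, 95.5 and 111 FPKM in siMENA11a. Control and silenced libraries stayed apart (log2 change -0.94, SE 0.07, limma adjusted p = 6.48e-05). ANXA2, a membrane-binding annexin, held 849, 904 and 878 FPKM in control and 488, 425 and 534 FPKM in siMENA11a. It was lower in every silenced library (log2 change -0.87, SE 0.10, limma adjusted p = 0.000582). The growth factor HDGF, the imprinted gene PEG10 and PTMA, prothymosin alpha, changed by -0.93, -0.93 and -0.90 on the log2 scale. HIST1H4D, a histone H4 gene, changed by -0.73, a call that was lost without control library 2 or 3 or siMENA11a library 3 (highest limma adjusted p 0.0579). PTMA carried neither word, whereas RPLP0, SUMO2, ANXA2, HDGF and PEG10 carried at least 1. Genes that rose carried the words too. Among the rises named by the same rule these were ABCB11, ANGPTL4, IFIT2 and B2M. RPLP0, SUMO2 and PTMA have processed pseudogenes that are close copies, and how reads were divided between them is not known.

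In the lists of actin and adhesion the counts were small, and are to be read against the 8.16% of all tested genes that rose and the 11.3% that fell. In the LIM kinase and cofilin list of 18 genes 1 rose and 2 fell: ROCK1, which activates LIM kinases, by 0.28, LIMK1 as above, and cofilin itself, CFL1, by -0.31, on the log2 scale. The fall of CFL1 was lost without control library 2 or 3 (limma adjusted p up to 0.0539), and the falls numbered 1 without control library 2 or control library 3 and 4 without siMENA11a library 2. CAPZA1, a subunit of the protein that caps filament ends, held 128, 132 and 137 FPKM in control and 85.6, 67.8 and 79 FPKM in siMENA11a. No silenced library reached the controls' range (log2 change -0.77, SE 0.08, limma adjusted p = 0.000242). Of the Arp2/3 complex, which nucleates branched actin, ARPC1A and ARPC1B fell (-0.71 and -0.26).

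Integrins, the adhesion receptors for matrix, moved in both directions. Of 11 subunits 3 rose and 2 fell. ITGB6, partner of the integrin that activates latent TGF-beta, held 9.14, 6.54 and 9.13 FPKM in control and 16.4, 14.2 and 19.3 FPKM in siMENA11a. It was higher in every silenced library (log2 change 0.93, SE 0.13, limma adjusted p = 0.0015). The collagen-binding subunits ITGA2 and ITGA1 rose by 0.63 and 0.44, and ITGB5 and ITGA6 changed by -0.44 and -0.31. ITGB1, the common beta chain, held 393, 445 and 399.6 FPKM in control and 344, 387 and 371 FPKM in siMENA11a, a change of -0.17 that did not pass (limma adjusted p = 0.162). Under siMENA its value was 186 ± 12.9 FPKM, and siMENA11a and siMENA differed by 0.98 (limma adjusted p = 2.65e-05).

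Among linkers and junctions, the E-cadherin gene CDH1 held 259.8, 243 and 258 FPKM in control and 199.5, 179.6 and 191 FPKM in siMENA11a. All 3 silenced libraries were lower (log2 change -0.42, SE 0.06, limma adjusted p = 0.00196). Of 10 desmosome genes 3 rose, 1 of them in every leave-one-out fit, and 2 fell, with DSG2 at 0.26 and PKP4 and DSC3 at -0.39 and -0.37. KRT18, the partner of KRT8 in simple epithelium, held 1298, 1255 and 1358 FPKM in control and 1042, 906 and 1018 FPKM in siMENA11a, with no overlap (log2 change -0.40, SE 0.08, limma adjusted p = 0.0102). The focal adhesion linkers FERMT2 and LIMS1 rose by 0.33 and 0.33, and PARVB changed by -0.45. Of 14 genes of epithelial splicing and epithelial to mesenchymal transition none fell and 3 rose, none of them in every leave-one-out fit. None of the 15 genes of the YAP and TAZ list passed in either direction. That list holds YAP1, WWTR1 (TAZ), the TEAD factors and the LATS kinases beside target genes. TGFBR2, the type II TGF-beta receptor, held 77.5, 86.9 and 79 FPKM in control and 42.6, 40.5 and 44.6 FPKM in siMENA11a. It fell (log2 change -0.91, SE 0.07, limma adjusted p = 6.91e-05), whereas ID1, a target of BMP signalling, held 834, 816 and 876 FPKM in control and 1175, 1054 and 1300.1 FPKM in siMENA11a and rose (log2 change 0.48, SE 0.09, limma adjusted p = 0.00716). The ERK phosphatases DUSP6, DUSP5 and DUSP4 rose by 0.56, 0.33 and 0.30, the 3 rises among 16 MAPK feedback genes.

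In every list of the cell cycle more genes fell than rose. In bulk RNA, fewer cells in a phase of the cycle and less RNA per cell cannot be told apart. The lists below are to be read against the 8.16% of all tested genes that rose and the 11.3% that fell. Where a list counts 2 genes or fewer in a direction, leaving out 1 library gave a count between 0 and 4. Where 0 or none is given for a list in siMENA11a against control, limma's unadjusted p was under 0.05 in that direction for at most 2 of its genes. At replication origins, where the MCM helicase is loaded, 9 of 22 genes fell and 0 rose (median log2 change -0.29). Without siMENA11a library 2, 16 fell. The largest of the falls that held in every leave-one-out fit were CDC45 (-0.53), GINS1 (-0.52) and GMNN (-0.49), in the log2 change. At the fork 18 of 30 enzymes fell and 0 rose (median -0.28), but 10 without control library 2, control library 3 or siMENA11a library 1. POLE2 and POLA2, subunits of polymerases epsilon and alpha, changed by -0.53 and -0.46, LIG1, the ligase that joins Okazaki fragments, by -0.50, and PRIM1 of the primase by -0.43. For nucleotide synthesis 7 of 23 fell and 2 rose (4 without siMENA11a library 1 and 11 without siMENA11a library 2 fell), with DUT at -0.58 and DTYMK at -0.52. Of the cyclins, kinases and inhibitors 9 of 27 fell and 0 rose (4 without control library 2, control library 3, siMENA11a library 1 or siMENA11a library 3 fell). CDC25C, CDK4, CCNE2 and E2F1 were the ones that fell in every leave-one-out fit, by between 0.43 and 0.33.

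Mitotic genes showed the same direction. Of 27 kinetochore and checkpoint genes 16 fell and 0 rose (median -0.36). That count was 10 without control library 2, control library 3 or siMENA11a library 1 and 25 without siMENA11a library 2. MAD2L1 (-0.60), BUB1B (-0.56) and TTK (-0.45), which hold the checkpoint, and the centromere protein CENPF (-0.54) were among them. Of 30 spindle, kinesin and cytokinesis genes 18 fell, 0 rose and all 30 had a change below 0 (median -0.45). The falls numbered 9 without control library 3 or siMENA11a library 1 and 10 without control library 2 or siMENA11a library 3. CEP55, a protein of the midbody, held 28.1, 33.7 and 30.1 FPKM in control and 14.2, 17.8 and 14.4 FPKM in siMENA11a. Its groups were well apart (log2 change -0.95, SE 0.11, limma adjusted p = 0.000486). RACGAP1, KIF4A and KIF20A, which act at the central spindle, changed by -0.68, -0.59 and -0.56. Of 20 cohesin and condensin genes 13 fell (5 without control library 2 or siMENA11a library 1, 6 without control library 3 and 8 without siMENA11a library 3). RAD21, the cohesin subunit cleaved at anaphase, held 152, 163 and 173 FPKM in control and 104, 93.2 and 99.7 FPKM in siMENA11a. It was lower in every silenced library (log2 change -0.71, SE 0.08, limma adjusted p = 0.000418). In the anaphase-promoting complex 7 of 20 genes fell and 3 rose (3 without control library 2 and 4 without control library 3 fell). Its activator CDC20 changed by -0.66, while the small subunits ANAPC13 and CDC26 rose by 0.38 and 0.33.

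The count for DNA repair moved by under 1.5 times whichever library was left out. Of 38 genes 13 fell and none rose, and 12 of the falls held in every leave-one-out fit. RAD51AP1, a protein of homologous recombination, held 19.1, 23.4 and 20.5 FPKM in control and 10.5, 12.5 and 11.1 FPKM in siMENA11a. Its groups did not overlap (log2 change -0.83, SE 0.09, limma adjusted p = 0.000449). The uracil glycosylase UNG changed by -0.65, the nuclease EXO1 by -0.50 and the helicase BLM by -0.49. Replication-dependent histones counted 10 falls and 1 rise among 28 genes. Of these falls 3 held in every leave-one-out fit, and the falls numbered 3 without control library 3, 4 without control library 2 or siMENA11a library 3 and 18 without control library 1. Histone genes of a cluster have near-identical copies, so reads may be split between them.

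Fewer genes of most cell-cycle lists passed under siMENA against the same control libraries, where 10.3% of all genes rose and 8.24% fell. There 2 fork enzymes, 1 spindle gene, 1 repair gene and 0 kinetochore genes fell by the limma test (6, 6, 3 and 4 at an unadjusted p under 0.05). In other lists the falls under siMENA were a larger share than 8.24%. They numbered 5 of 22 origin genes, 4 of 27 cyclins, kinases and inhibitors and 3 of 20 genes each of cohesin and condensin and of the anaphase-promoting complex. In these lists 1, 2, 1 and 3 genes rose. The difference itself was tested as siMENA11a against siMENA, in which 22.2% of all genes were lower and 14.4% higher. In it 20 of the 30 fork enzymes were lower in siMENA11a and 1 higher. Likewise 15 of 27 kinetochore genes, 14 of 30 spindle genes and 19 of 38 repair genes were lower. TOP2A, topoisomerase II alpha, was an exception to the direction: it held 91.2 ± 9.07 FPKM in control, 66 ± 6.84 in siMENA11a and 55.1 ± 2.72 in siMENA (SD, n = 3).

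**Figure D4:**
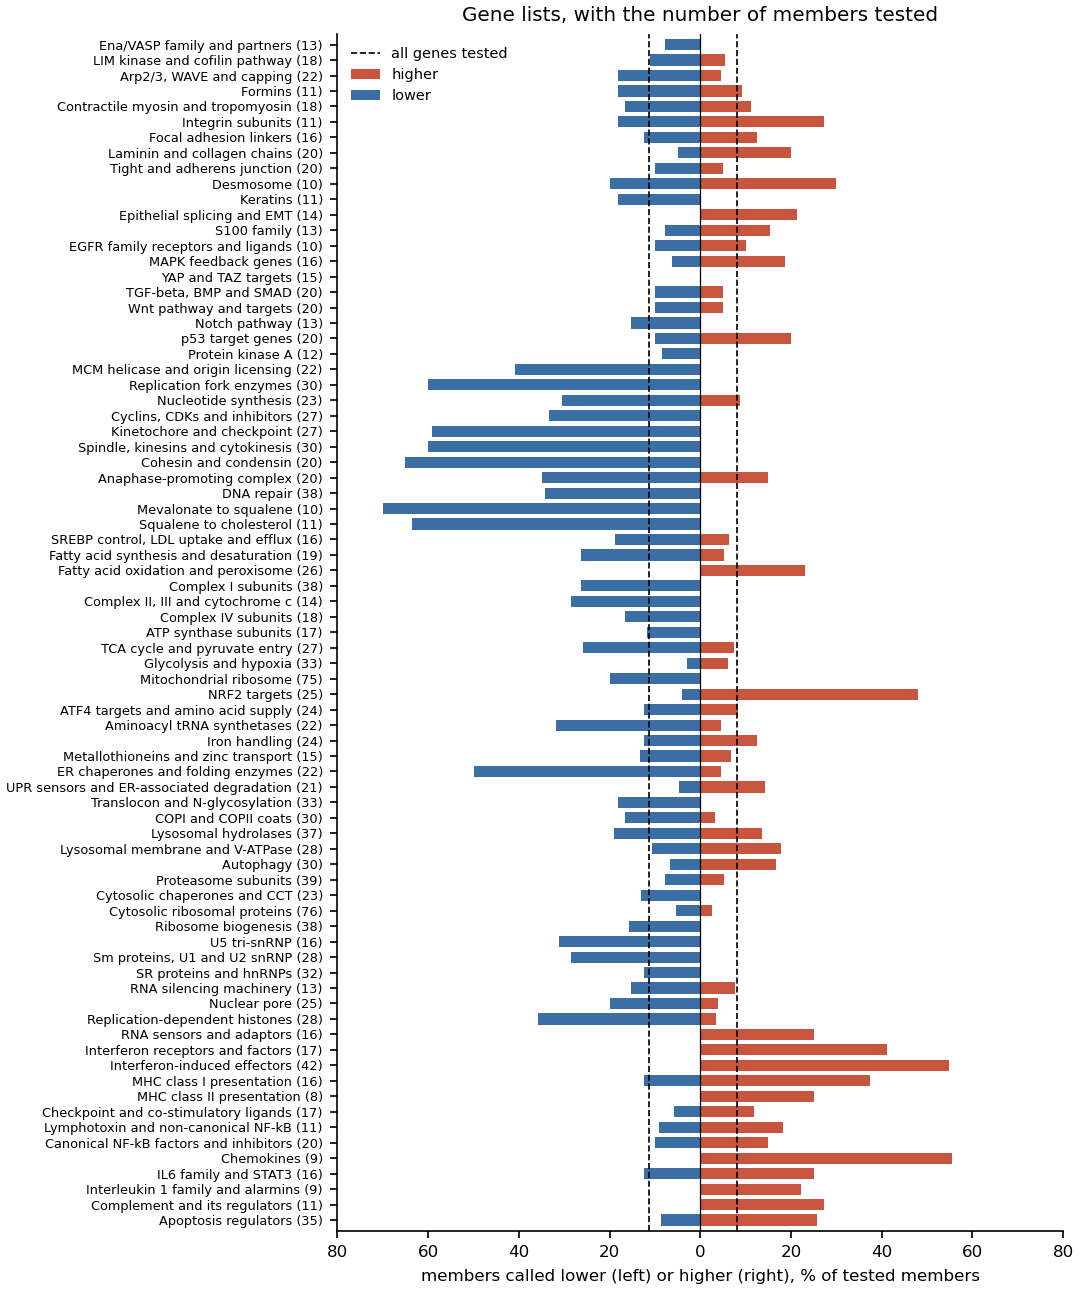
Percent of the tested members of each of 77 gene lists that were called lower (left) and higher (right) in siMENA11a against control, with the number tested in brackets. Dashed lines mark the 11.3% and 8.16% of all tested genes, and lists of the cell cycle and of cholesterol synthesis extend farthest to the left.

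Genes of cholesterol synthesis fell along the pathway. From acetyl-CoA to squalene 7 of 10 genes fell and 0 rose (median -0.47), and from squalene to cholesterol 7 of 11 fell and 0 rose (median -0.51). MVD, which makes isopentenyl diphosphate, held 38.6, 36.4 and 38.3 FPKM in control and 21, 20.7 and 21.6 FPKM in siMENA11a. This was the largest fall of the pathway (log2 change -0.81, SE 0.07, limma adjusted p = 7.89e-05). In the same early segment ACAT2, MVK and FDPS changed by -0.71, -0.59 and -0.55. IDI1 (-0.37) and FDFT1 (-0.39) also fell. IDI1 was lost without control library 3 (limma adjusted p 0.0606) and FDFT1 without control library 1 or 3 (up to 0.0721). Of the members that did not pass, HMGCS1 gave -0.08, GGPS1 0.24 and PMVK 0.23 (limma adjusted p = 0.441, 0.0662 and 0.0735).

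SQLE, the squalene epoxidase, held 82.6, 78.2 and 84.5 FPKM in control and 53.6, 48.9 and 56.5 FPKM in siMENA11a. The groups did not overlap (log2 change -0.62, SE 0.07, limma adjusted p = 0.000602). Other falls of the late segment lay between -0.55 for DHCR7 and -0.48 for NSDHL, with CYP51A1, EBP and LSS between them. All 7 falls of the segment held whichever library was left out. No gene of the early segment carried either word of the exon, and in the late segment 3 of 4 carriers and 4 of 7 others fell. Under siMENA 0 and 1 genes of the 2 segments fell, (at an unadjusted p under 0.05, 2 of the early segment), and 8 and 7 were lower in siMENA11a than in siMENA.

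Of the controllers of the pathway, INSIG1, which retains the SREBP complex in the ER and is itself a target, changed by -0.76, and INSIG2 by 0.51. SREBF2, the factor that drives cholesterol genes, gave -0.05 (limma adjusted p = 0.669) and SREBF1 -0.17 (limma adjusted p = 0.199). In fatty acid synthesis 5 of 19 genes fell and 1 rose. SCD, the stearoyl-CoA desaturase, held 501, 399.6 and 499 FPKM in control and 303, 232 and 307 FPKM in siMENA11a. It was lower in every silenced library (log2 change -0.73, SE 0.14, limma adjusted p = 0.00696), as were the desaturases FADS2 (-0.78) and FADS1 (-0.70). SCD also fell under siMENA (-0.46, limma adjusted p = 0.0489). For SCD siMENA11a minus siMENA was -0.27, which did not pass (limma adjusted p = 0.163). FASN, the fatty acid synthase, gave -0.30 and did not pass (limma adjusted p = 0.308). In fatty acid oxidation none of 26 genes fell and 6 rose, 4 of them in every leave-one-out fit, among them ACADS (0.61) and HADHB (0.32).

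**Figure D5:**
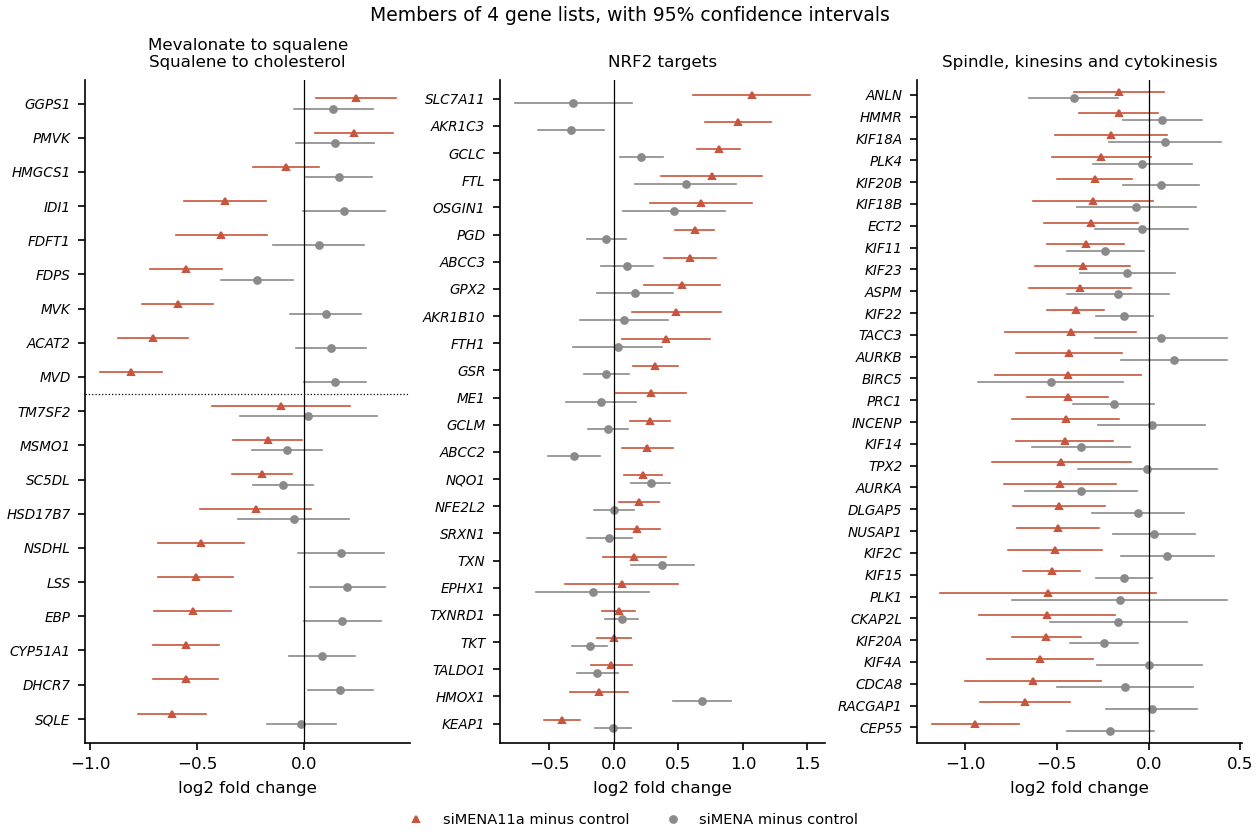
Log2 change with its 95% confidence interval for tested genes of both cholesterol segments (divided by the dotted line), the NRF2 list and the spindle list. Triangles give siMENA11a minus control and circles siMENA minus control, which share the control libraries. All 30 spindle genes lie below 0 in siMENA11a, as do all cholesterol genes shown except GGPS1 and PMVK.

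In mitochondria most subunits of the respiratory chain did not pass. Of 38 complex I subunits 10 fell and 0 rose, but 3 without control library 1 or control library 3 and 6 without control library 2 or siMENA11a library 2. In complexes II and III 4 of 14 fell, with CYC1, cytochrome c1, at -0.41. In complex IV 3 of 18 fell, with COX5A at -0.60, and in the ATP synthase 2 of 17, a share near the 11.3% of all genes. Mitochondrial ribosomal proteins counted 15 falls among 75 (8 without control library 3 and 9 without control library 1), with MRPL12 at -0.61. Under siMENA against control 7 complex I subunits and 16 mitochondrial ribosomal genes rose. Between the siRNAs 25 of 38 complex I subunits and 40 of 75 mitochondrial ribosomal genes were lower in siMENA11a, and 0 and 2 higher. In the TCA cycle 7 of 27 fell and 2 rose (4 without siMENA11a library 1 fell), with the mitochondrial IDH2 at -0.47 against the cytosolic IDH1 at 0.36.

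Many chaperones and folding enzymes of the endoplasmic reticulum fell. Of 22 genes 11 fell and 1 rose (median -0.21), and 9 falls held in every leave-one-out fit. CALR, calreticulin, held 343, 349.5 and 357 FPKM in control and 238, 214 and 226 FPKM in siMENA11a. Each silenced library was lower (log2 change -0.63, SE 0.07, limma adjusted p = 0.000319). SDF2L1, CRELD2, PPIB, HSP90B1 and PDIA4 changed by -0.82, -0.53, -0.51, -0.46 and -0.45. HSPA5, the main ER Hsp70, gave -0.16 and did not pass (limma adjusted p = 0.348), and XBP1, a factor of the unfolded protein response, rose by 0.33. Under siMENA 8 fell, and 9 genes were lower in siMENA11a than in siMENA. Of the lysosomal hydrolases 5 rose and 7 fell among 37. The rises numbered 3 without control library 3 and 9 without control library 1 and the falls 4 without control library 1, control library 3 or siMENA11a library 2. CTSS, cathepsin S, rose by 0.71 where CTSB fell.

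The lists of RNA and protein synthesis differed in how many genes fell. Of 28 Sm, U1 and U2 genes 8 fell and none rose (4 without control library 3 and 5 without control library 2 or siMENA11a library 1), with SF3B2 at -0.55 and SNRPA at -0.42. Of 16 U5 tri-snRNP genes 5 fell (2 without siMENA11a library 1 and 3 without control library 2), EFTUD2 and DDX23 (-0.31) in every leave-one-out fit. Of 22 aminoacyl tRNA synthetase genes 7 fell and 1 rose (3 without control library 2, control library 3 or siMENA11a library 1 fell), with the complex's scaffold AIMP2 at -0.75. Of 76 cytosolic ribosomal proteins 4 fell and 2 rose (2 without control library 1, control library 3 or siMENA11a library 1 fell), RPLP0 and RPL26 (-0.58) in every leave-one-out fit. The ribosomal falls were a smaller share than the 11.3% of all genes. SR proteins and hnRNPs, with 4 falls and no rise among 32, lay near that share, and 1 or 2 fell whichever library was left out. In ribosome biogenesis 6 of 38 fell and none rose (1 without control library 3, 2 without control library 2 and 3 without control library 1), 18 rose under siMENA, and 25 were lower in siMENA11a than in siMENA.

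Many targets of NRF2, the factor that drives glutathione and NADPH genes under oxidative stress, rose. The list of 25 tested genes holds the regulator KEAP1 beside targets, and KEAP1 was its only fall. Of the 25 genes 12 rose and 1 fell (median 0.28), against 8.16% of all genes that rose. Of the rises 6 held in every leave-one-out fit. The rises numbered 6 without control library 3 and 7 without control library 1. SLC7A11, the cystine transporter, held 7.18, 10.3 and 8.6 FPKM in control and 14.6, 28.5 and 16.9 FPKM in siMENA11a. The highest silenced library, replicate 2, stood apart from the other two, but all 3 lay above the controls (log2 change 1.07, SE 0.20, limma adjusted p = 0.00639). GCLC, the catalytic subunit of glutathione synthesis, held 6.62, 5.57 and 5.54 FPKM in control and 11, 11.8 and 10.5 FPKM in siMENA11a. Control and silenced libraries stayed apart (log2 change 0.81, SE 0.08, limma adjusted p = 0.00016). AKR1C3, an aldo-keto reductase, held 0.725, 1.14 and 0.801 FPKM in control and 3.07, 2.23 and 2.72 FPKM in siMENA11a. It was higher in each silenced library (log2 change 0.96, SE 0.12, limma adjusted p = 0.000686). PGD, an NADPH-making enzyme of the pentose phosphate pathway, rose by 0.63, and the exporter ABCC3 by 0.59.

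Other NRF2 targets did less. GCLM rose by 0.28, lost without control library 1 or 3, and NQO1 by 0.23, lost when any 1 of the 6 libraries was left out and with only those 6 in the fit (limma adjusted p up to 0.0715 and 0.107). TXNRD1 and HMOX1 gave 0.04 and -0.12 and did not pass (limma adjusted p = 0.707 and 0.459), and HMOX1 changed by 0.68 under siMENA. NFE2L2, which encodes NRF2, gave 0.20 (limma adjusted p = 0.0734). KEAP1, the adaptor that marks NRF2 for degradation, held 38.1, 41.4 and 37.9 FPKM in control and 30.8, 28.2 and 29.3 FPKM in siMENA11a. It fell (log2 change -0.40, SE 0.06, limma adjusted p = 0.0025), and its 3′ UTR carried a word of the pair. SQSTM1, the p62 protein that binds KEAP1, held 92.4, 102 and 85.7 FPKM in control and 142, 198 and 145 FPKM in siMENA11a. It rose (log2 change 0.77, SE 0.13, limma adjusted p = 0.00358). Of the 25 genes of the list 12 were higher in siMENA11a than in siMENA and 2 lower, and under siMENA 3 rose and 1 fell. FTL, the ferritin light chain and an abundant gene, held 1092, 1217 and 1010.4 FPKM in control and 1569.6, 2509.7 and 1647 FPKM in siMENA11a (log2 change 0.76, SE 0.18, limma adjusted p = 0.0152). That rise was lost without control library 3 (limma adjusted p 0.061).

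The largest rises were S100P, a calcium-binding protein, which held 2.52, 2.43 and 2.39 FPKM in control and 11.9, 7.06 and 9.11 FPKM in siMENA11a, and BIRC3, an inhibitor of apoptosis and NF-kB target, which held 2.71, 2.39 and 3 FPKM in control and 8.19, 10.2 and 7.43 FPKM in siMENA11a. In both every silenced library lay above the controls (S100P: log2 change 1.56, SE 0.20, limma adjusted p = 0.000907; BIRC3: log2 change 1.37, SE 0.11, limma adjusted p = 7.89e-05). The potassium channel KCNK15, the ubiquitin hydrolase UCHL1, the creatine enzyme GATM and the bile salt exporter ABCB11 followed, with log2 changes of 1.35, 1.27, 1.25 and 1.12. The pseudogene OR7E91P, SDCBP2 and PNLIPRP3 rose by 1.10, 1.09 and 1.09. Further down, ANGPTL4, a secreted inhibitor of lipoprotein lipase, held 23.9, 21.3 and 21.7 FPKM in control and 46.5, 45.7 and 50.03 FPKM in siMENA11a. All silenced libraries were about as high as each other and above the controls (log2 change 1.06, SE 0.06, limma adjusted p = 2.56e-05). SAT1, the enzyme that acetylates spermidine and spermine, held 44.2, 45 and 39.3 FPKM in control and 85.7, 87.7 and 91 FPKM in siMENA11a. The groups did not overlap (log2 change 1.03, SE 0.09, limma adjusted p = 0.000154), and siMENA held 40.3 ± 6 FPKM, so that siMENA11a and siMENA differed by 1.12 (limma adjusted p = 3.45e-05). PODXL2, a sialomucin, rose by 1.07 and by 1.16 under siMENA. C11orf52, the SNARE protein STX19 and the retinoid-induced RARRES1 rose by 1.03, 0.98 and 0.97. IL6, the cytokine, held 22.2, 25.7 and 29.9 FPKM in control and 47.7, 58.3 and 47.7 FPKM in siMENA11a (log2 change 0.96, SE 0.11, limma adjusted p = 0.000576). STEAP4, a metalloreductase, and UBE2L6, the conjugating enzyme of ISG15, were abundant genes that rose by 0.59 and 0.60. Under siMENA GATM, ANGPTL4, C11orf52, IL6, STX19 and UBE2L6 rose as well, by 0.63, 0.59, 0.56, 0.55, 0.49 and 0.36. KCNK15, SDCBP2 and OR7E91P fell there, by -0.51, -0.49 and -0.40 in the log2 change.

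Many interferon-induced genes rose and none fell. Of 42 effectors 23 rose (median 0.49), of which 15 held in every leave-one-out fit. The rises numbered 15 without control library 3. A word of the exon pair was carried by 15 effectors, of which 10 rose, and 13 of the 27 others rose. ISG15, the ubiquitin-like modifier, held 79.4, 115 and 83.5 FPKM in control and 157, 204 and 152 FPKM in siMENA11a. Every silenced library lay above the controls (log2 change 0.89, SE 0.17, limma adjusted p = 0.00627). IFI35, PARP9, OAS1, DTX3L and TRIM22 rose by 0.91, 0.89, 0.81, 0.72 and 0.68. OASL (0.96) and IFIT2 (0.90) rose too, but both calls were lost without control library 1 or 3 (limma adjusted p up to 0.07 and 0.0753). Of 17 receptors and factors 7 rose and none fell (3 without control library 3). IRF9, the DNA-binding subunit of the ISGF3 complex, held 15.1, 14.5 and 15.7 FPKM in control and 31.7, 27.3 and 29.1 FPKM in siMENA11a. It was higher in every silenced library, with no overlap (log2 change 0.91, SE 0.06, limma adjusted p = 6.06e-05). Of 16 sensors of foreign RNA and their adaptors 4 rose, with DDX58 (RIG-I) at 0.75, IFIH1 (MDA5) at 0.62 and EIF2AK2 (PKR) at 0.39.

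The siMENA pool also raised interferon genes against the same controls, 18 of 42 effectors (10.3% of all genes rose there). Tested between the siRNAs, 9 effectors were higher and 3 lower in siMENA11a. IRF9 was higher by 0.48 (limma adjusted p = 0.00039), whereas IFIT1 differed by -0.24 (limma adjusted p = 0.387). Leukocyte markers summed to 4.41 to 7.15 FPKM in control and 5.26 to 9.65 FPKM in siMENA11a, mostly CD14, which held 2.92, 5.46 and 2.87 FPKM in control and 3.69, 7.21 and 3.96 FPKM in siMENA11a. Of the 14 listed 6 were in the table and 2 reached a mean of 0.5 FPKM, and the T and B cell genes CD8A, CD4 and CD79A were near 0 as given above.

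Of 16 genes of MHC class I presentation 6 rose and 2 fell (3 without control library 2, control library 3, siMENA11a library 1 or siMENA11a library 3 rose). B2M, the light chain of class I molecules, held 1184, 1065 and 1056 FPKM in control and 1827, 1565 and 1949 FPKM in siMENA11a. Each silenced library was higher (log2 change 0.69, SE 0.10, limma adjusted p = 0.00208), siMENA held 1053 ± 60.8 FPKM, and the siRNAs differed by 0.75 (limma adjusted p = 0.000493). NLRC5, the activator of class I genes, rose by 0.51, and the peptidase ERAP2 changed by -0.36. HLA-B and HLA-C gave -0.14 and 1.15 with wide errors (SE 0.63 and 1.14) and did not pass. Reads of these near-identical genes may be split between them. HLA-DRA of class II rose by 0.84. CD274, which encodes PD-L1, rose by 0.54, lost without control library 3 (limma adjusted p 0.0552).

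CASP4, a caspase of the inflammatory group, held 93.1, 89.2 and 88.4 FPKM in control and 144, 152 and 152 FPKM in siMENA11a. Its groups did not overlap (log2 change 0.72, SE 0.06, limma adjusted p = 8.92e-05). Of 35 apoptosis regulators 9 rose and 3 fell, and the rises numbered 5 without control library 3 or siMENA11a library 3. CASP8, CASP9 and CASP10, initiator caspases, rose by 0.44, 0.57 and 0.55, while the adaptor APAF1 and the BH3-only gene BMF changed by -0.40 and -0.75. The complement genes CFI, CLU and CD46 rose by 0.77, 0.54 and 0.25.

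Of 9 chemokines 5 rose and none fell, but 2 without control library 3, siMENA11a library 1 or siMENA11a library 3 and 3 without control library 2. IL8 rose by 0.67 in every leave-one-out fit. CCL5 held 66.7, 83.2 and 57.4 FPKM in control and 137, 197 and 117 FPKM in siMENA11a (log2 change 1.09, SE 0.25, limma adjusted p = 0.0152), a call lost without control library 3 (limma adjusted p 0.0597). Under siMENA CCL5 rose by 0.99 (limma adjusted p = 0.024), and siMENA11a minus siMENA was 0.11 (limma adjusted p = 0.772). Of the non-canonical NF-kB list, LTBR, the lymphotoxin beta receptor, changed by -0.39. Its target subunits NFKB2 and RELB gave -0.005 and 0.37 and did not pass (limma adjusted p = 0.974 and 0.0536). NFKBIA, the inhibitor that NF-kB itself induces, rose by 0.33. The IL6 receptor relative IL11RA changed by -0.51 and IL18 by 0.44.

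Across the whole table more genes passed between the siRNAs than between either siRNA and control. Between siMENA11a and siMENA 4857 genes (36.6%) passed, 1916 higher and 2941 lower in siMENA11a, and the lower ones were 60.6% of the calls. With median-ratio scaling the counts were 2307 higher and 2316 lower, and with quantile normalization 2283 and 2365. Against the same 3 control libraries, which both comparisons share, siMENA gave 2463 genes (18.6%), 1369 higher and 1094 lower. LANCL1 held 38.9 ± 3.5 FPKM under siMENA, EFTUD2 38.6 ± 0.395, LIMK1 22.8 ± 1.37, CTSB 66.4 ± 7.16 and HDGF 213 ± 12.5 (SD, n = 3). The test between the siRNAs gave -1.98 for LANCL1, -1.54 for EFTUD2, -1.36 for LIMK1, -1.34 for CTSB and -1.01 for HDGF (limma adjusted p = 3.34e-05, 2.16e-06, 3.22e-06, 1.46e-05 and 9.51e-06).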

How the data were processed

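RNA of H1650 cells was sequenced on 9 libraries, 3 per group, from ribosome-depleted total RNA with a stranded kit, as paired reads of 75 bases, per the labels' protocols. The authors deposited 1 table of FPKM per gene and library, mapped to hg19 per the submitters' processing notes; for the aligner, counting tool and annotation nothing is given in the sources. A share of the deposited values had lost the decimal point: 11524 whole numbers (7.91% of values, in 4868 genes) were divided by 1000, on the ground that no value of the table has 3 decimals while 54179 have 4, and that the whole numbers lay at a median of 1025 times the gene's other values. One decimal comma was read as a point (1 value). Genes that lack a value in any library (1286) were not tested. Control library 1 lacked 0 values, and each other library lacked 411 to 592. Every gene of the deposited data thus has a value in control library 1, and genes without one do not appear. Sums of the 9 libraries differ little, but without counts their depth is unknown.

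Values were analysed as log2(FPKM + 1) with limma 3.58.1 in R 4.3.3: all 9 libraries in 1 fit by group (6 residual degrees of freedom), a mean-variance trend, a filter at 0.5 FPKM on the mean over the 9 libraries, and Benjamini-Hochberg adjustment over all 13273 genes, with no replicate block. The fit was first run on simulated data with independent noise in every library, so that run does not cover deviations shared between libraries. Named genes were ENAH, the 20 largest rises and falls among called genes averaging 1 FPKM or more whose groups did not overlap, small RNA genes passed over, the 10 largest each way at 100 FPKM or more, up to 6 members of each list by size of change, and list members needed to account for a pathway. A few list members beyond the largest 6 were added after their values were seen, mostly because their calls held in every leave-one-out fit. The 82 gene lists and the 2 words of the exon were chosen with earlier results of these data known. Exon and 3′ UTR sequences are from GENCODE release 29 (GRCh38), matched by gene name or RefSeq synonym. Alternatives were the pseudocount, the filter, the scaling, the trend, the replicate block, the libraries in the fit, each library left out, and the repair. Some list members are counted in their lists but not reported by name here.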

Additional observations from a re-analysis of the deposited data

How the results depend on the processing

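The number of genes that passed in siMENA11a against control was 2583. It lay between 2031 and 2674 under the other pseudocounts, filters, scalings, no trend and the 6 libraries alone. With genes that hold a repaired value left out it was 1362 (605 higher, 757 lower), and with the values as deposited and unrepaired 556 (253 higher, 303 lower); the first tests fewer genes. Leaving out 1 library gave 1493 to 2390 genes, 593 to 964 higher and 900 to 1426 lower. Against siMENA the count of 4857 became 2716 (1078 higher, 1638 lower) without repaired genes and 1703 (690 higher, 1013 lower) without the repair. Without the repair the sign turned for these named genes, all with a repaired value, to log2 changes of ABCC3 -2.71, ANXA2 2.45, BUB1B 6.01, C12orf75 1.97, CASP8 -2.85, CDC26 -9.56, CDC45 2.75, CENPF 2.77, CRELD2 2.77, DHCR7 2.75, ERAP2 2.92, FASN 3.01, HIST1H4D 2.59, ID1 -6.17, IDH1 -2.96, ITFG3 1.83, ITGB5 2.86, KRT18 2.92, LIMS1 -2.97, LTBR 2.92, NSDHL 2.80, PRIM1 6.13, RPL26 9.39, RPLP0 9.02, SUMF1 2.13, TXNRD1 -3.28. ENAH stayed lower and passed in every setting.

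With the replicate block the count was 3431 (1481 higher, 1950 lower). Same-numbered control and siMENA11a libraries correlated by 0.206, 0.425 and -0.0302 in their deviations from the group means. Replicate 2 of siMENA correlated with replicate 2 of control and of siMENA11a by 0.378 and 0.309. Between groups, replicate 2 correlated with libraries of other numbers by -0.425 to -0.0664. Deviations within a group sum to 0 for each gene, so positive values at replicate 2 bring such negative ones with them. By the positive values the replicate 2 libraries deviated alike in all groups. Part of the spread in the main fit, which has no block, is therefore shared between groups. Replicates 1 and 3 showed less of this. Control replicate 1 correlated best with siMENA11a replicate 3, at 0.321, and control replicate 3 with siMENA11a replicate 1, at 0.133. Of the named genes that did not pass, NFKB2 turned to 0.0078 with median-ratio scaling and 0.0054 with quantile normalization. Leaving out 1 library took NFKB2 between -0.0582 and 0.079, SNRNP200 between -0.0814 and 0.0203, HLA-B between -0.57 and 0.61 and HLA-C between -0.39 and 1.97.

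The medians of the lists for Arp2/3, EGFR family, YAP and TAZ, p53, ATF4, proteasome, cytosolic chaperones and RNA silencing changed sign between scalings, so no direction is given for them. Depth is unknown, and changes of genes near 0.5 FPKM are limited by it.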

Other observations

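Of the tested genes whose biotype matched RefSeq, 254 were long noncoding RNAs, of which 10 rose and 13 fell, and 90 were small nucleolar RNAs, of which 1 rose and none fell. The snoRNA that rose was SNORD116-20, which held 49.4, 39.5 and 33.3 FPKM in control and 165, 87.9 and 139 FPKM in siMENA11a and also stood higher under siMENA (log2 change 1.37). The small nucleolar RNAs had a median change of 0.15, against -0.01 for the 12216 protein-coding genes. Several genes had a large mean difference that did not pass. NSF, a membrane fusion ATPase, held 15.7, 16.1 and 16.5 FPKM in control and 0.0438, 0.0368 and 17 FPKM in siMENA11a (log2 change -2.67, SE 1.28, limma adjusted p = 0.175), so that siMENA11a replicates 1 and 2 were near 0 and replicate 3 was at the control level. RN45S, the ribosomal RNA precursor, held 2376, 0 and 1343 FPKM in control and 2170.2, 2091 and 2772 FPKM in siMENA11a (log2 change 3.98, SE 2.29, limma adjusted p = 0.254), and is listed at 0 in control replicate 2. MIR1248, a small RNA gene, held 35.8, 0.131 and 0.00928 FPKM in control and 82.2, 0.000863 and 154 FPKM in siMENA11a (log2 change 2.76, SE 1.87, limma adjusted p = 0.337). Small RNAs shorter than a sequenced fragment have uncertain FPKM.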
